A study of Mus musculus with 69 samples.

Results

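NEPC-3 is 1 of 3 mouse prostate organoid lines labelled NEPC, the usual abbreviation of neuroendocrine prostate cancer, and it was set against the other two, NEPC-1 and NEPC-2. The comparison uses 9 bulk RNA sequencing libraries, 3 per line, of the 69 libraries in the series and the 36 in the count table that holds them. NEPC-3 was tested against the mean of NEPC-1 and NEPC-2 and against each of them. A gene counted as beyond both lines when all 3 tests passed in the same direction and the 3 NEPC-3 libraries all lay above, or all below, the 6 others.

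The series addresses how extracellular matrix and the YAP/TEAD transcription factors bear on the change from prostate adenocarcinoma to a neuroendocrine tumour. All 9 libraries were made from polyA RNA of prostate organoids, small epithelial clusters kept in culture. The labels give no agent, time, age or genotype for the 3 lines, and the library codes begin with TKONE. They do not say whether the 3 libraries of a line are separate cultures, so the p-values reflect library-to-library spread alone, possibly only technical, and each line stands for itself. Levels of a pair of further groups are given without a test, namely PRAD organoids with DMSO for 8 days and PRAD organoids with COMBO, a treatment that the labels do not spell out, for 42 days.

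Neuroendocrine prostate cancer is a form of the disease that expresses genes of neurons and endocrine cells. Lineage transcription factors such as Insm1 take part in that programme, while luminal genes are usually reduced. Tumours of this type can also show little expression of the genes that present antigens to T cells.

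The 9 libraries held 26033412 to 32196249 counts, and levels are TMM-scaled CPM, the counts of a gene relative to the library total. The neuroendocrine label matched the markers in all 3 lines. Insm1, a zinc finger factor of endocrine cells, had 446, 429 and 428 CPM in NEPC-1, 749.8, 687 and 759 CPM in NEPC-2 and 445, 446 and 450.0 CPM in NEPC-3, against 0.0446 ± 0.0772 CPM (SD, n = 3) in PRAD organoids with DMSO. The epithelial keratin Krt8 had means of 1068, 1167 and 1043 CPM in NEPC-1, NEPC-2 and NEPC-3, so the cells of all 3 lines kept an epithelial keratin. The basal marker Krt5 and the tuft cell factor Pou2f3 were at most 0.260 ± 0.451 and 0.0623 ± 0.0632 CPM in any line. Fibroblast and muscle markers summed to at most 1.75 CPM in any of the 9 libraries and immune markers to at most 2.54 CPM, with Col3a1 at 0 counts in all 3 lines. These sums cover the 6 of 14 and 5 of 19 listed markers that the count table holds. The endothelial list was not near 0, because Vwf alone had 286, 422 and 282 CPM in the same order. In bulk RNA, fewer cells of a type and less RNA per cell cannot be told apart.

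NEPC-3 differed widely from the mean of the other lines. Of 18483 genes tested with edgeR's quasi-likelihood test, 5019 were higher (27.2%) and 6136 lower (33.2%) at a Benjamini-Hochberg adjusted p under 0.05, together 60.4%. Against NEPC-1 alone 25.7% were higher and 32.4% lower (58.1% in all), and against NEPC-2 alone 27.5% and 33.5% (61.1%). The common biological coefficient of variation between libraries of a group was 3.85%, and at this low scatter differences well under 2-fold passed the test. Beyond both lines lay 2517 higher genes (13.6%) and 3560 lower genes (19.3%), in all 32.9%. With at least a 2-fold difference from each line the counts were 297 higher (1.61%) and 882 lower (4.77%), and with at least 4-fold they were 70 (0.379%) and 361 (1.95%), in all 6.38% and 2.33% of genes. At both fold limits more genes were low in NEPC-3 than high. By pairwise calls and separate libraries alone, NEPC-1 had 971 genes at least 2-fold above and 315 below both other lines, NEPC-2 had 565 and 618, and NEPC-3 had 297 and 882.

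**Figure D1:**
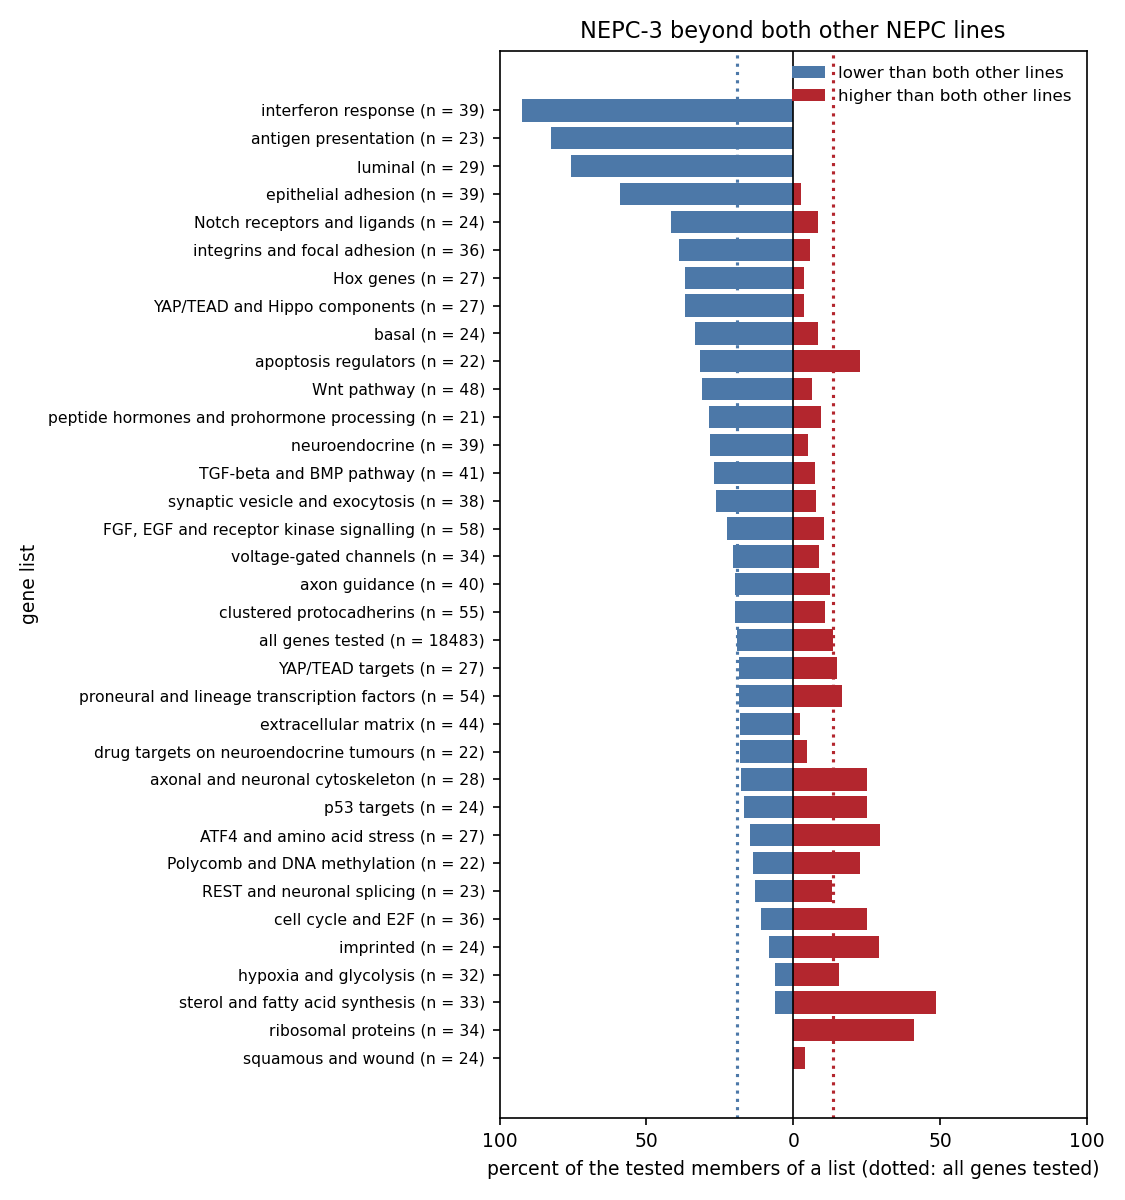
Percent of the tested members of each gene list with at least 20 tested members that were lower (blue, to the left) or higher (red, to the right) in NEPC-3 than in both other lines, with dotted lines at 19.3% and 13.6% for all genes tested. Interferon response, antigen presentation, luminal and epithelial adhesion genes have the longest bars to the left, and sterol and fatty acid synthesis and ribosomal protein genes the longest to the right.

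Genes of the interferon response were low in NEPC-3. These genes are switched on after interferon binds its receptor, and many of their products block viral replication. Of 39 tested members 36 were lower than both other lines and 0 higher, against 19.3% lower over all genes, and the median log2 fold change against the mean was -2.91, against -0.01 over all genes. Usp18, a protease that removes ISG15 from proteins and restrains the receptor, had 108, 111 and 116 CPM in NEPC-1, 8.90, 8.59 and 9.21 CPM in NEPC-2 and 0.363, 0.379 and 0.318 CPM in NEPC-3. Its 3 lines were fully separate, with NEPC-1 highest and NEPC-3 near 0, and the log2 fold change against the mean was -6.46 ± 0.10 (SE, edgeR adjusted p = 6.81e-40). Isg15, a ubiquitin-like protein, had 21.4, 23.3 and 22.3 CPM in NEPC-1, 5.96, 5.17 and 6.09 CPM in NEPC-2 and 0.242, 0.284 and 0.578 CPM in NEPC-3. Here too no library of one line overlapped another, and the log2 fold change was -4.91 ± 0.16 (edgeR adjusted p = 1.94e-27).

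Regulators of the response and RNA sensors were lower too. Irf9, a DNA-binding factor of the response, had 147, 148 and 148 CPM in NEPC-1, 46.1, 45.7 and 45.8 CPM in NEPC-2 and 10.01, 10.2 and 9.23 CPM in NEPC-3. NEPC-3 lay lowest in every library, with log2 fold changes of -3.91 against NEPC-1 and -2.22 against NEPC-2 (edgeR adjusted p = 3.29e-42 and 4.93e-32). Irf7, which amplifies the response, had means of 188, 23.7 and 3.17 CPM in NEPC-1, NEPC-2 and NEPC-3. The RNA sensors Ddx58 and Ifih1 had 142, 48.6 and 11.9 and 97.1, 44.1 and 16.8 CPM in that order. Both sensors were lower in NEPC-3 than in each other line (edgeR adjusted p against the mean 1.98e-37 and 1.76e-29). In PRAD organoids with DMSO, Irf9 was at 64.4 ± 0.756 CPM and Usp18 at 45.2 ± 1.23 CPM.

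The 2'-5' oligoadenylate synthetases make the signal that activates RNase L. Oas2 had 42.96, 39.3 and 39.03 CPM in NEPC-1, 4.89, 5.59 and 6.06 CPM in NEPC-2 and 0.212, 0.158 and 0.116 CPM in NEPC-3, 33.4-fold below the nearer line on the fitted scale. Oas2 to Oas1a on chromosome 5, from 120730333 to 120907544, form a run of 6 neighbouring genes that were all lower, by 2.66 to 55.65-fold against the nearer line. Members of this family resemble one another in sequence, as do Ifit3 and Ifit3b, so reads may be shared among them and single values are uncertain. The 3 tested interferon genes that were not beyond both lines were Isg20, Mx1 and Ifit2. Isg20, an exonuclease, had means of 12.6, 97.7 and 71.1 CPM, and NEPC-3 lay between the other lines. Mx1 had 18.1, 4.64 and 6.21 CPM and Ifit2 had 45.5, 19.2 and 17.9 CPM, with NEPC-3 near NEPC-2 in both.

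**Figure D2:**
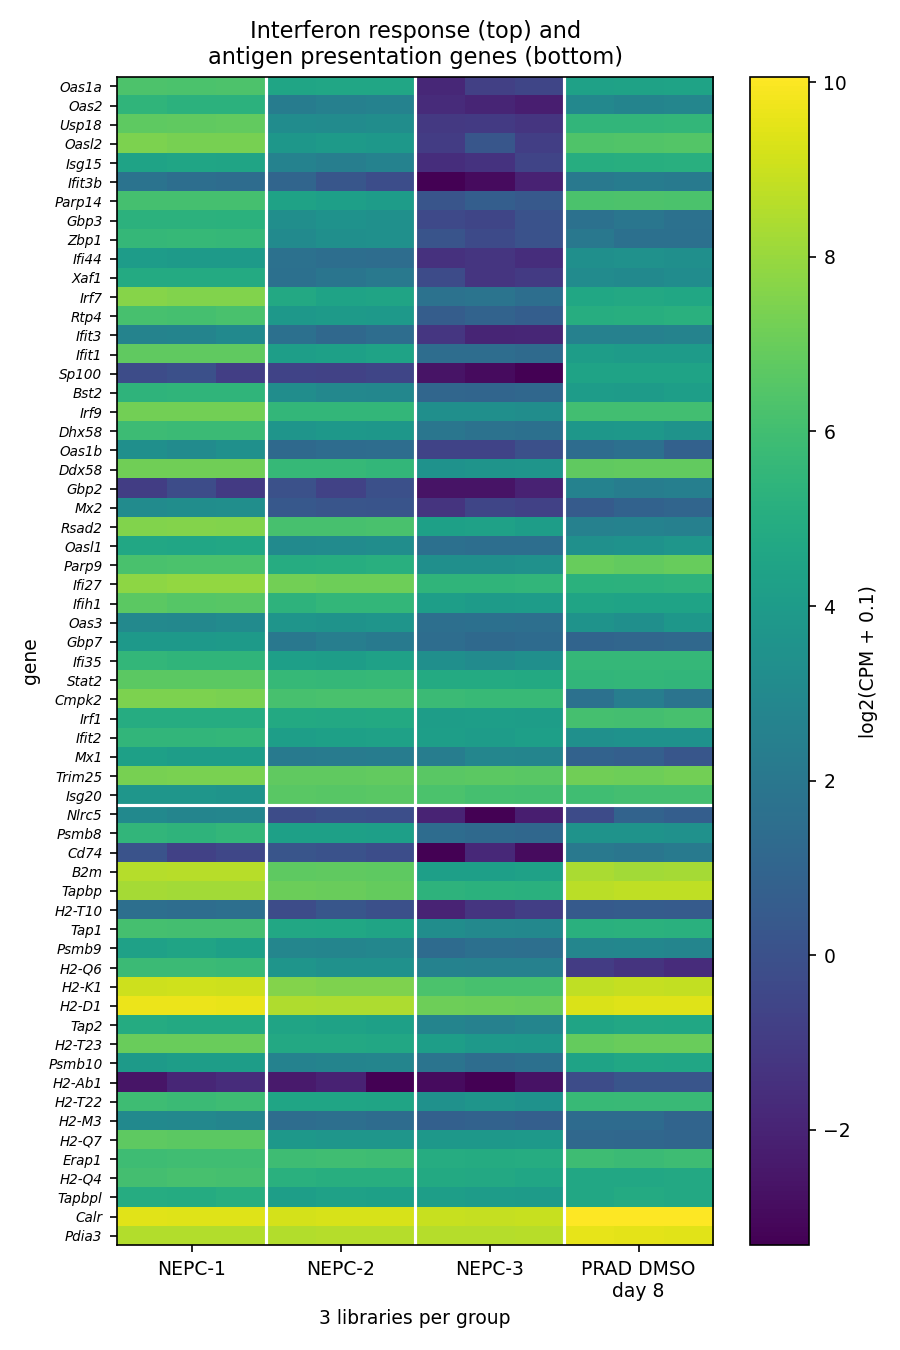
Heat map of log2(CPM + 0.1) for interferon response genes (top) and antigen presentation genes (bottom), one column per library, for NEPC-1, NEPC-2, NEPC-3 and PRAD organoids with DMSO at day 8, ordered within a list by the fold change of NEPC-3. For most genes the 3 NEPC-3 columns are the darkest of the 9 NEPC columns, as for Usp18 with a mean of 0.353 CPM.

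Promoters of 4 of these genes are shown because interferon-stimulated genes are known to carry repeats of GAAA that factors of the response bind. Each sequence is the 250 bases before the start listed by RefSeq on GRCm38.p6, written 5′ to 3′ on the strand of the gene, and capitals mark GAAA, any 2 bases and GAAA on either strand, with overlapping matches counted. Isg15 lies on the minus strand at chr4:156200819-156201068 and has 3 matches, which overlap. Ifit1 is on the plus strand at chr19:34640639-34640888 with 2, Oas1a on the minus strand at chr5:120907526-120907775, before an annotated start inside the gene, with 2 that overlap, and B2m on the plus strand at chr2:122147437-122147686 with 1.
Isg15: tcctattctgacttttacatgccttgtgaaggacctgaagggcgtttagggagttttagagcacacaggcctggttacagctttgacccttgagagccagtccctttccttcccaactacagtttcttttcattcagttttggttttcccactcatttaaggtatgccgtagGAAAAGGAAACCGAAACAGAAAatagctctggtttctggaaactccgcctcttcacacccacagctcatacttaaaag
Ifit1: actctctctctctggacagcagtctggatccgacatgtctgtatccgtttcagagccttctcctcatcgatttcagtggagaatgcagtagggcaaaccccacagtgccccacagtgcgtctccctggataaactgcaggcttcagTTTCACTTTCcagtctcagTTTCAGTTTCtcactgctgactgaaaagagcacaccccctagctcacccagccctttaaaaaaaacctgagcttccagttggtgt
Oas1a: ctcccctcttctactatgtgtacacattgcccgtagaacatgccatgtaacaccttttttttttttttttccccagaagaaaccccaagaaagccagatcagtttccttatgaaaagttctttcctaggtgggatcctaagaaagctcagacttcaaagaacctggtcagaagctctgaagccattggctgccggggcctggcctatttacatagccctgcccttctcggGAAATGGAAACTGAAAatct
B2m: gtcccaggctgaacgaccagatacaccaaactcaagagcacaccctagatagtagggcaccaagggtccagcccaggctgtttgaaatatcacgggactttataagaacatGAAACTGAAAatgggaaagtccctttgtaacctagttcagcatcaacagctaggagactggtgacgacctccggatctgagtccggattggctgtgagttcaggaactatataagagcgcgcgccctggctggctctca

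Of the 36 interferon genes lower than both lines, 25 had a promoter in the RefSeq table and 12 of these held the motif (48.0%). Of the 19 antigen presentation genes lower than both lines, 15 had a promoter and 3 of these held it. Counted per gene, as these are, 936 of 27025 genes with a promoter of this length in the table held it (3.46%), and counted per promoter 978 of 32851 (2.98%). A match describes the letters of the promoter and is not a measured binding site.

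Antigen presentation genes were low as well. Class I molecules carry peptides to the cell surface, where T cells read them. Of 23 tested members 19 were lower than both lines and 0 higher, against 19.3% and 13.6% over all genes, and the median log2 fold change against the mean was -1.95. B2m, the light chain of every class I molecule, had 383, 388 and 396 CPM in NEPC-1, 107, 113 and 108 CPM in NEPC-2 and 18.4, 18.9 and 20.4 CPM in NEPC-3. The lines formed 3 separate levels, with NEPC-3 at the bottom, and the log2 fold change was -3.42 ± 0.04 (edgeR adjusted p = 1.11e-43). The heavy chain H2-D1 had means of 809, 346 and 133 CPM and H2-K1 529, 182 and 73.4 CPM, but class I heavy chains share sequence, so reads may be split among them. Nlrc5, the transactivator of class I genes, had 8.14, 6.81 and 6.87 CPM in NEPC-1, 0.777, 0.873 and 0.840 CPM in NEPC-2 and 0.151, 0 and 0.116 CPM in NEPC-3.

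The machinery that makes and loads peptides followed. Psmb8, an immunoproteasome subunit, had 45.1, 42.1 and 45.9 CPM in NEPC-1, 19.6, 19.4 and 18.4 CPM in NEPC-2 and 2.60, 2.31 and 2.11 CPM in NEPC-3. No library of one line overlapped another, and the log2 fold change was -3.64 ± 0.10 (edgeR adjusted p = 8.83e-30). The peptide transporter subunits Tap1 and Tap2 had means of 67.5, 24.6 and 8.18 and 28.6, 21.04 and 6.34 CPM, and the loading factor Tapbp had 295, 126 and 37.4 CPM, in NEPC-1, NEPC-2 and NEPC-3. Psmb9 begins a run of 5 neighbouring lower genes on chromosome 17 from 34182030 to 34497429. Among general folding factors the differences were smaller. Calr had 687, 599.5 and 491 CPM and was lower than both lines, while Pdia3 had 366, 377 and 388 CPM and was not beyond them. The 5 immune markers held in the count table summed to between 0.954 and 1.48 CPM in the NEPC-3 libraries, so these markers were near 0 there.

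Luminal genes were the third group that was low. Luminal cells are the secretory cells of the prostate. Of 29 tested members 22 were lower than both lines and 0 higher, against 19.3% and 13.6% over all genes, with a median log2 fold change of -1.52 against the mean.

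Several luminal surface and keratin genes were lower by large factors. Cldn4, a tight junction claudin, had 65.8, 63.1 and 64.6 CPM in NEPC-1, 15.8, 18.4 and 15.99 CPM in NEPC-2 and 0.907, 1.08 and 0.896 CPM in NEPC-3. NEPC-3 lay 17.4-fold below the nearer line on the fitted scale (edgeR adjusted p against the mean 2.02e-37). Wfdc2, a secreted protease inhibitor, had 166, 169 and 167 CPM in NEPC-1, 144, 136 and 132 CPM in NEPC-2 and 11.6, 10.6 and 10.8 CPM in NEPC-3. For this gene NEPC-1 and NEPC-2 lay close together and NEPC-3 far below them (edgeR adjusted p = 5.62e-39). Krt19 had means of 491, 216 and 34.7 CPM and its keratin relative Krt18 375, 342 and 149 CPM, both lower in NEPC-3 than in each line. Krt8, the partner of Krt18, was not beyond both lines, with log2 fold changes of -0.03 against NEPC-1 and -0.16 against NEPC-2.

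Factors that specify luminal fate were low to different degrees. Gata3, a zinc finger factor of luminal cells, had 42.8, 39.6 and 43.6 CPM in NEPC-1, 7.77, 6.81 and 7.29 CPM in NEPC-2 and 0.817, 0.506 and 0.636 CPM in NEPC-3. Its lines were separate, and the log2 fold change was -4.73 ± 0.10 (edgeR adjusted p = 2.77e-34). Foxa1, a factor that opens chromatin, had means of 192, 258 and 96.3 CPM, a smaller difference of -1.21 ± 0.03 on the log2 scale (edgeR adjusted p = 3.35e-33). Foxa2, its relative in neuroendocrine cells, had 252, 280.0 and 299 CPM and was not beyond both lines, with log2 fold changes of 0.25 against NEPC-1 and 0.10 against NEPC-2. A fit on the 9 NEPC libraries alone, among other settings, placed Foxa2 above both.

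**Figure D3:**
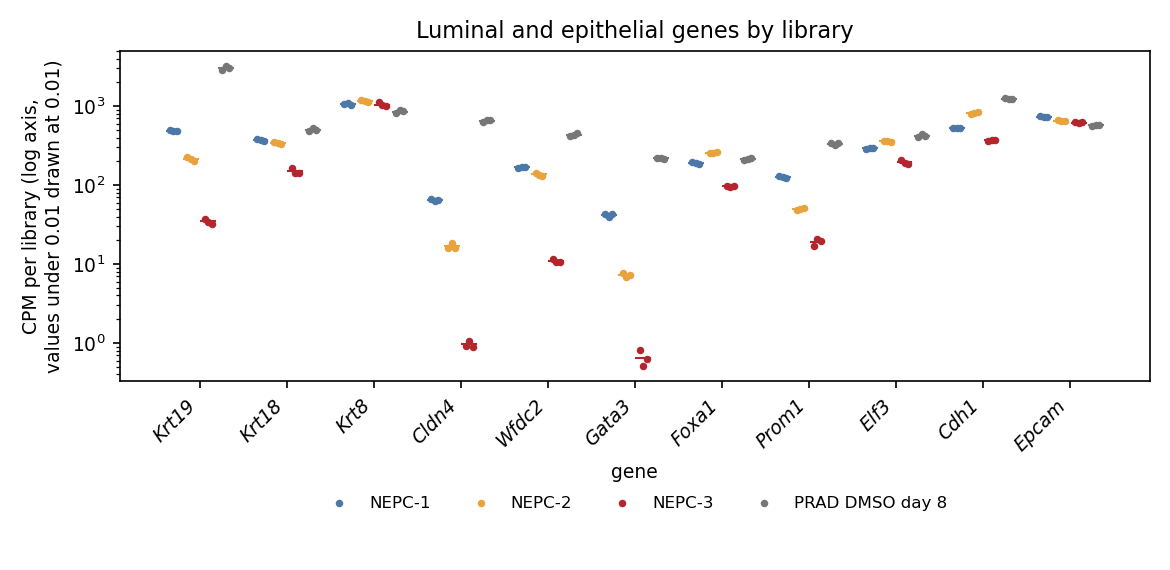
CPM in each library on a log axis for 11 luminal and epithelial genes, with points for the 3 libraries of NEPC-1, NEPC-2, NEPC-3 and PRAD organoids with DMSO at day 8 and a short line at each mean. NEPC-3 lies below both other lines for every gene drawn except Krt8, whose libraries overlap. Apart from Krt8, the NEPC-3 means run from 0.653 CPM for Gata3 to 619.8 CPM for Epcam.

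Genes of epithelial adhesion were lower by smaller steps. Of 39 tested members 23 were lower than both lines and 1 higher, against 19.3% and 13.6% over all genes, with a median log2 fold change of -0.29. Cdh1, the epithelial cadherin, had 533, 521 and 523 CPM in NEPC-1, 795, 830.0 and 832 CPM in NEPC-2 and 366, 376 and 369 CPM in NEPC-3. NEPC-3 was lowest in every library, with log2 fold changes of -0.50 and -1.14 against NEPC-1 and NEPC-2 (edgeR adjusted p = 1.07e-22 and 2.33e-35). Pkp1, a desmosome plaque protein, had means of 99.9, 70.4 and 21.4 CPM and St14, a membrane protease, 316, 299 and 145 CPM. Epcam differed by only -0.16 ± 0.02 on the log2 scale against the mean (edgeR adjusted p = 5.15e-09), and a fit on the 9 NEPC libraries alone did not call it. The neural cadherin Cdh2 was on the same list and was lower too.

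Neuroendocrine genes were lower in part in NEPC-3. Of 39 tested members 11 were lower than both lines and 2 higher, against 19.3% and 13.6% over all genes. The other 26 were not beyond both lines, near the share over all genes (12406 of 18483). The median log2 fold change against the mean was -0.21. With the 9 NEPC libraries alone 5 were higher, and 4 without the third NEPC-3 library. Chga, a granin of secretory granules, had 591, 577 and 585 CPM in NEPC-1, 774, 760.2 and 759.5 CPM in NEPC-2 and 329.7, 319 and 296 CPM in NEPC-3. NEPC-3 was lowest without overlap, by -1.09 ± 0.04 on the log2 scale against the mean (edgeR adjusted p = 9.84e-26).

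Other granule and vesicle genes varied. Syp, a synaptic vesicle protein, had means of 237, 193 and 146 CPM and was lower than both lines (edgeR adjusted p = 8.98e-15). Resp18, an endocrine secretory protein, had 46.05, 48.8 and 49.2 CPM in NEPC-1, 5.63, 4.68 and 5.43 CPM in NEPC-2 and 1.03, 1.04 and 0.752 CPM in NEPC-3. Calca, which encodes calcitonin and CGRP, had 124, 129 and 134 CPM in NEPC-1, 13.5, 13.7 and 13.7 CPM in NEPC-2 and 1.24, 1.42 and 1.65 CPM in NEPC-3. Both genes fell into 3 separate levels with NEPC-3 at the bottom, and for Calca the log2 fold change was -4.86 ± 0.08 (edgeR adjusted p = 2.63e-38). Insm1 was not beyond both lines, and NEPC-3 and NEPC-1 differed by 0.04 on the log2 scale. Syn2, a synapsin that tethers synaptic vesicles, was higher instead, with means of 258, 344 and 520.4 CPM (edgeR adjusted p = 4.71e-24).

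Of 54 tested lineage transcription factors, 9 were higher and 10 lower than both lines, near the 13.6% and 19.3% over all genes. Zfhx4, a large homeodomain factor, had 0.972, 1.15 and 0.716 CPM in NEPC-1, 0, 0 and 0 CPM in NEPC-2 and 14.8, 14.4 and 14.98 CPM in NEPC-3. NEPC-2 held 0 counts, and NEPC-3 was at least 456-fold higher against a floor of 3 counts over that line. Nkx2-1, a factor of lung and thyroid, was low everywhere but highest in NEPC-3, with 1.88, 1.77 and 2.00 CPM there and 0 counts in NEPC-2. Tlx3, a homeobox factor of sensory neurons, had means of 19.8, 1.59 and 32.8 CPM (edgeR adjusted p = 2.49e-22).

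The lower factors included stem and endocrine regulators. Sox2, a pluripotency and neural factor, had 251, 247 and 246 CPM in NEPC-1, 285, 279 and 290.2 CPM in NEPC-2 and 168, 158 and 166 CPM in NEPC-3. NEPC-3 was lowest in every library, by -0.70 ± 0.03 on the log2 scale (edgeR adjusted p = 4.30e-22). Neurog3, the factor of endocrine progenitors, had means of 10.4, 0.182 and 0.0206 CPM, and its call was lost without the third NEPC-2 library and with the 9 NEPC libraries alone. The homeobox factor Prox1 had 568, 685 and 525 CPM and was lower in NEPC-3. Onecut2 was not beyond both lines, with 28.03, 49.5 and 36.8 CPM and NEPC-3 between the others.

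**Figure D4:**
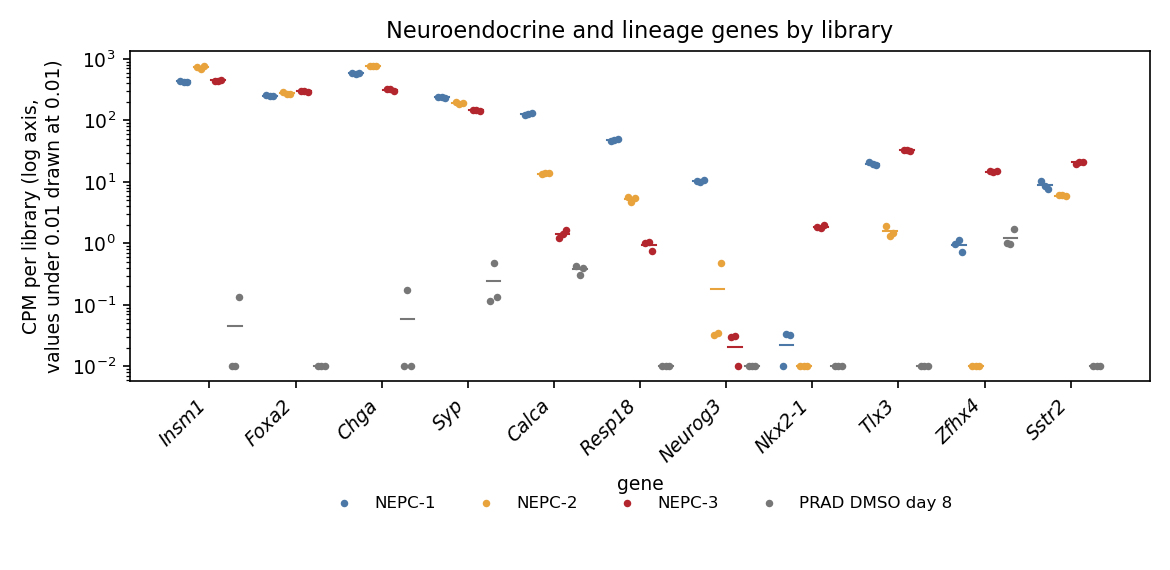
CPM in each library on a log axis for 11 neuroendocrine and lineage genes, drawn as in the plot of luminal genes, with values under 0.01 at 0.01. Foxa2 lies within a narrow band across the 3 lines, and Insm1 is close in NEPC-1 and NEPC-3 and higher in NEPC-2. Calca, Resp18 and Neurog3 step down to NEPC-3, and Zfhx4, Nkx2-1 and Sstr2 are highest in NEPC-3, at 14.7, 1.88 and 20.7 CPM.

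The longest run of neighbouring genes that were all higher in NEPC-3 lay on chromosome 4. A run of 13 neighbouring genes, from Cap1 to Rragc at 122859048 to 123936997 (1.08 Mb) on GRCm38.p6, were all higher than both lines, by 1.98 to 10.41-fold against the nearer line (median 3.21-fold). Neighbours were counted among genes whose average log2 CPM reached 1, and the stretch was defined after the values were seen. The same rule gave 1 other higher run, of 5 genes without common names, from Gm2974 to Gm3488 on chromosome 14 (2.15 to 4.58-fold), among which reads may be shared, so their values are uncertain. It also gave a lower run of 5 genes from Maged1 to Spin4 on the X chromosome (1.75 to 2.93-fold), beside the lower runs on chromosomes 5 and 17. Mycl, a MYC family gene known from human small cell lung cancer, had 352, 343 and 349 CPM in NEPC-1, 542, 533 and 533 CPM in NEPC-2 and 1051, 1084 and 1040 CPM in NEPC-3. The 3 lines did not overlap, and the log2 fold changes were 1.60 against NEPC-1 and 0.98 against NEPC-2 (edgeR adjusted p = 8.25e-37 and 3.73e-29). PRAD organoids with DMSO had 59.9 ± 3.16 CPM and with COMBO for 42 days 209 ± 8.15 CPM.

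Pabpc4, a poly(A)-binding protein, showed the largest difference in the stretch, with 25.1, 25 and 23.3 CPM in NEPC-1, 40.6, 37.9 and 38.3 CPM in NEPC-2 and 421, 407 and 388 CPM in NEPC-3. NEPC-3 lay far above every other library, and the log2 fold change was 3.72 ± 0.04 (edgeR adjusted p = 1.27e-45). Trit1, which modifies tRNAs, had means of 17.7, 21.5 and 116 CPM, and Ppie, a peptidyl-prolyl isomerase, 23.01, 16.9 and 127 CPM. Cap1, an actin regulator, had 214, 192 and 760.3 CPM, Macf1, a microtubule and actin crosslinker, 102, 146 and 479 CPM, and Rragc, a GTPase of amino acid sensing, 89.7, 89.4 and 302 CPM. The stretch ended sharply on both sides. Ppt1, the gene before it, had 19.1, 18.6 and 19.3 CPM and Utp11, the gene after it, 19.9, 17.6 and 20.4 CPM. Ndufs5 has a pseudogene, so its value is uncertain.

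**Figure D5:**
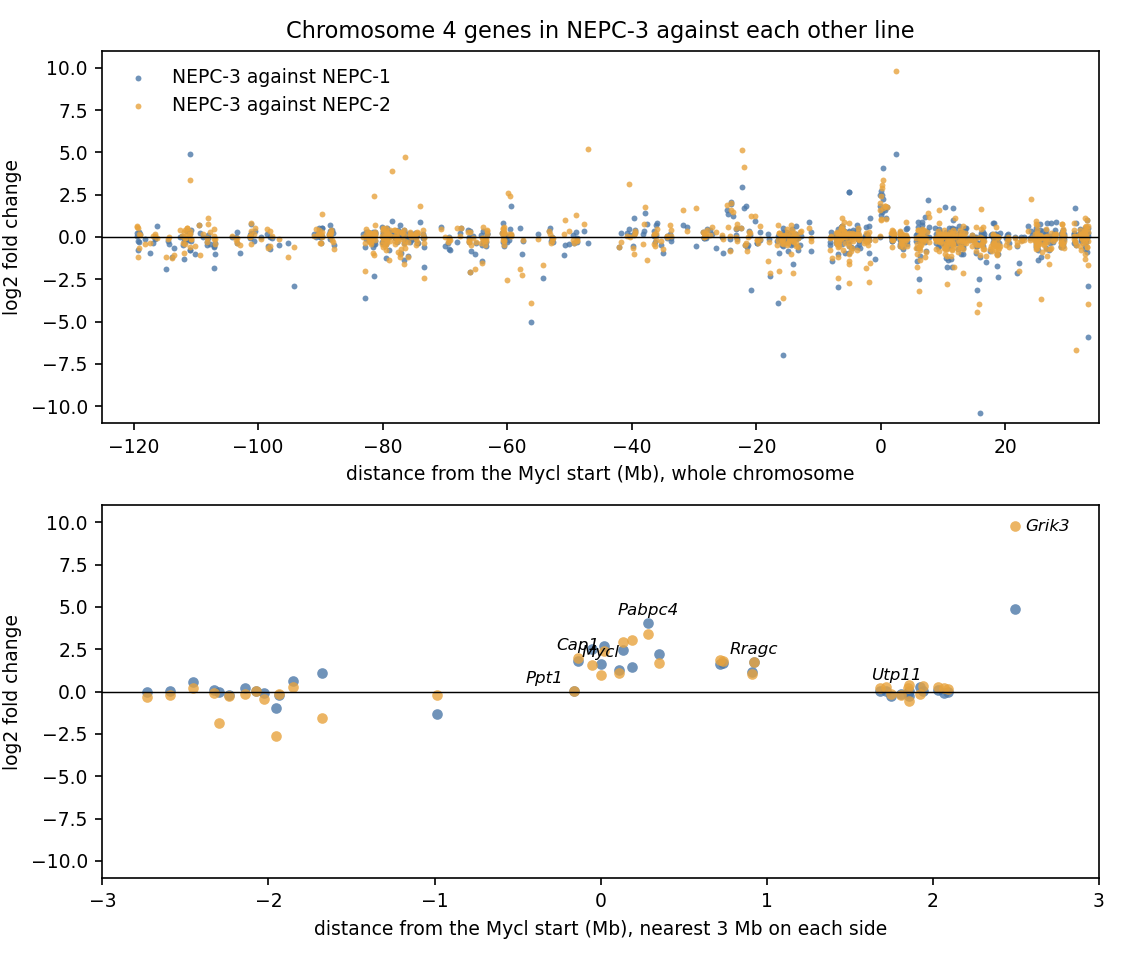
Log2 fold change of NEPC-3 against NEPC-1 (blue) and NEPC-2 (orange) for genes of chromosome 4 with their distance in Mb from the Mycl start, over the whole chromosome (top) and the nearest 3 Mb (bottom). The genes from Cap1 to Rragc lie above 0 in both comparisons between Ppt1 and Utp11, which lie near 0, and Grik3 stands farther along.

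Other high genes lay on the same chromosome. Usp1, a deubiquitinase of DNA repair, had 162, 155 and 167 CPM in NEPC-1, 147, 159 and 158 CPM in NEPC-2 and 614, 630.1 and 650.0 CPM in NEPC-3. Grik3, a kainate receptor subunit, had 5.16, 4.92 and 4.88 CPM in NEPC-1, 0.0647, 0.0349 and 0.360 CPM in NEPC-2 and 149, 152 and 145 CPM in NEPC-3. NEPC-1 was low and NEPC-2 near 0 for Grik3, while NEPC-3 was high in all 3 libraries (edgeR adjusted p = 7.82e-33). Of the 12 highest genes by the smaller pairwise difference, 7 lay on chromosome 4 (58.3%), which holds 6.3% of tested genes with a position. These 12 were limited to an average log2 CPM of at least 3. The 7 were Grik3, Usp1 and, from the Cap1 to Rragc run, Pabpc4, Ppie, Trit1, Cap1 and Rragc. Of all genes with a position that were at least 2-fold higher than each line, 28 of 266 lay there (10.5%). Both counts include genes of that run, so neither shows an excess on this chromosome apart from it. The chromosome as a whole was not high, with a median log2 fold change of -0.036 over 836 genes with an average log2 CPM of 1 or more.

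The other 5 of the 12 highest genes lay elsewhere. Cdh12, a neuronal cadherin, had 0.838, 0.708 and 0.423 CPM in NEPC-1, 0.162, 0.0698 and 0.150 CPM in NEPC-2 and 30.6, 30.5 and 31.4 CPM in NEPC-3. Kcnj5, a potassium channel subunit, had 3.48, 3.00 and 3.71 CPM in NEPC-1, 3.08, 3.25 and 2.94 CPM in NEPC-2 and 29.7, 28.98 and 30.97 CPM in NEPC-3. Both were high in every NEPC-3 library and low in the 6 others (edgeR adjusted p = 3.36e-27 and 4.62e-25). Fst, the activin antagonist follistatin, had means of 8.03, 9.49 and 60.6 CPM, Tgfb2, a TGF-beta ligand, 23.98, 15.4 and 96.6 CPM, and Stc1, a secreted glycoprotein, 5.99, 5.43 and 37.3 CPM.

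The 12 lowest genes included several outside the interferon response. Nalcn, a sodium leak channel, had 43.8, 44.7 and 47.3 CPM in NEPC-1, 74.2, 71.3 and 72.7 CPM in NEPC-2 and 0.272, 0.411 and 0.347 CPM in NEPC-3. It lay 131-fold below the nearer line on the fitted scale (edgeR adjusted p = 3.72e-31). Clca1, a secreted regulator of chloride channels, had means of 40.8, 62.6 and 0.683 CPM, Lcn2, an iron-trapping lipocalin, 10.1, 14.5 and 0.204 CPM and Cyp26b1, which breaks down retinoic acid, 41.1, 10.8 and 0.256 CPM. PRAD organoids with DMSO held 569 ± 12.4 CPM of Clca1 and 217 ± 7.38 CPM of Lcn2.

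Many sterol and fatty acid synthesis genes were higher in NEPC-3. Of 33 tested members 16 were higher than both lines and 2 lower, against 13.6% and 19.3% over all genes, with a median log2 fold change of 0.29. Hmgcs1, an early enzyme of the mevalonate pathway, had 416, 416 and 421 CPM in NEPC-1, 571, 577 and 594 CPM in NEPC-2 and 952, 975 and 975 CPM in NEPC-3. NEPC-3 was highest without overlap, by 0.97 ± 0.02 on the log2 scale (edgeR adjusted p = 1.09e-34). Idi1, an isomerase of the same pathway, had means of 183, 208 and 378 CPM, Lss, which closes the sterol rings, 132, 162 and 288 CPM and Fasn, the fatty acid synthase, 325, 431 and 527 CPM. None of the 16 reached 2-fold against both lines.

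The YAP factors, a subject of the series, were near 0 in all 3 lines. Wwtr1, the paralog of Yap1, had means of 0.0550, 0.0449 and 0.101 CPM. Yap1 had 0.771, 1.08 and 0.814 CPM in NEPC-1, 0.324, 0.698 and 0.540 CPM in NEPC-2 and 0.847, 0.632 and 1.22 CPM in NEPC-3, against 260.0 ± 8.89 CPM in PRAD organoids with DMSO. The NEPC-3 libraries overlapped those of both other lines, and NEPC-3 was not beyond them. Of 27 tested YAP/TEAD and Hippo components 10 were lower and 1 higher, against 19.3% and 13.6% over all genes. Of 27 targets 5 were lower and 4 higher, near those shares. Lats2, a Hippo kinase, had means of 6.25, 2.21 and 0.429 CPM (edgeR adjusted p = 4.50e-20).

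Some matrix receptor genes were lower in NEPC-3. Of 36 tested integrin and focal adhesion genes 14 were lower and 2 higher, against 19.3% and 13.6% over all genes. Of 44 matrix genes 8 were lower, near the share over all genes, and 1 higher. Itga6, a laminin receptor subunit, had 106, 105 and 100.1 CPM in NEPC-1, 172, 175 and 172 CPM in NEPC-2 and 44.9, 46.9 and 46.8 CPM in NEPC-3. NEPC-3 was lowest and NEPC-2 highest, with a log2 fold change of -1.53 ± 0.03 against the mean (edgeR adjusted p = 9.14e-38). Of 24 tested Notch receptor and ligand genes 10 were lower and 2 higher, against the same 19.3% and 13.6%. Notch2 had means of 6.04, 30.8 and 4.44 CPM and the Notch target Hes1 11.6, 15.6 and 4.06 CPM, both lower in NEPC-3. Dll3, an inhibitory Notch ligand, had 6.13, 10.7 and 7.00 CPM and was not beyond both lines.

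Of 58 tested growth factor and receptor kinase genes 13 were lower than both lines and 6 higher, near the 19.3% and 13.6% over all genes. The receptors Egfr, Erbb2 and Met were low in all 3 lines and lowest in NEPC-3. Egfr had means of 5.54, 2.47 and 0.881 CPM, Erbb2 1.79, 1.45 and 0.243 CPM and Met 3.36, 2.15 and 0.963 CPM, while PRAD organoids with DMSO had 106 ± 3.43, 159 ± 3.16 and 194 ± 5.98 CPM. All 3 were lower than both lines (edgeR adjusted p = 1.74e-15, 1.96e-14 and 9.54e-11). Igf1, a secreted growth factor, was higher instead, with 10.2, 10.3 and 11.8 CPM in NEPC-1, 4.37, 4.26 and 4.23 CPM in NEPC-2 and 27.9, 27.7 and 29.6 CPM in NEPC-3. Sstr2, a somatostatin receptor that is imaged in human neuroendocrine tumours, had 10.3, 8.52 and 7.68 CPM in NEPC-1, 6.02, 6.04 and 5.82 CPM in NEPC-2 and 19.9, 21.2 and 20.97 CPM in NEPC-3. NEPC-3 lay above every other library for both genes (edgeR adjusted p = 1.77e-20 and 1.21e-17).

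Single genes of the cell cycle and of tumour suppression were as follows. Rb1, which restrains entry into S phase, had means of 179, 190.0 and 116 CPM and was lower in NEPC-3 (edgeR adjusted p = 1.92e-19). Such gene totals carry no information on which exons are present. Trp53 had 15.2, 3.05 and 7.79 CPM, with NEPC-3 between the other lines. The proliferation marker Mki67 had 522, 725 and 610.4 CPM, also between them. Of 36 tested cell cycle genes 9 were higher and 4 lower, against 13.6% and 19.3% over all genes. Birc5, an inhibitor of apoptosis in mitosis, had 53.8, 69.7 and 106 CPM (edgeR adjusted p = 2.53e-21). Myc and Mycn were at 4.62, 1.43 and 1.48 and 7.07, 3.51 and 5.93 CPM and were not beyond both lines, while Mycl was higher than both.

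Hox genes, which encode position along the body, were lower in part. Of 27 tested members 10 were lower than both lines and 1 higher, against 19.3% and 13.6% over all genes. Hoxb8 had 0 counts in NEPC-3, and was at least 184-fold higher in NEPC-1 and at least 18.5-fold higher in NEPC-2 against a floor of 3 counts over NEPC-3. Hoxb3, Hoxb4, Hoxb5, Hoxb6, Hoxb7 and Hoxb9 also had 0 counts in NEPC-3. In NEPC-2 their counts over the line ran from 0 for Hoxb4 and 4 for Hoxb6 to 115 for Hoxb9. With genes kept at an average log2 CPM of at least 1, 6 Hox genes were lower in place of 10.

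Y chromosome genes split. Ddx3y, an RNA helicase, had 15.95, 15.5 and 15.3 CPM in NEPC-1, 0.486, 0.559 and 0.270 CPM in NEPC-2 and 33.4, 33.6 and 32.9 CPM in NEPC-3, and Eif2s3y and Uty were also higher than both lines. Kdm5d, a histone demethylase on the same chromosome, had 8.98, 10.5 and 9.67 CPM in NEPC-1, 1.39, 1.47 and 1.77 CPM in NEPC-2 and 0.182, 0.0316 and 0.0578 CPM in NEPC-3. NEPC-3 was highest for 3 of the 4 tested Y genes and near 0 for Kdm5d (edgeR adjusted p = 5.71e-23).

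Whole chromosomes differed by small shifts. On chromosome 11 the median log2 fold change against the mean was 0.18 over 1026 genes filtered likewise, with 38.4% of them higher than both lines. It was 0.176 against NEPC-1 and 0.17 against NEPC-2, and 0.154 when all genes kept were used. On the X chromosome the median was -0.21 over 460 genes, with 36.5% lower than both lines. The shares over all genes tested are no reference here, because this filter leaves out genes of low level. After chromosome 11, the largest share of genes higher than both lines was 18.9%, on chromosome 16. After the X chromosome, the largest share lower than both was 33.5%, on chromosome 14, so the X share stood little apart. These medians and shares are descriptions with no test, and the medians of the other 18 chromosomes lay between -0.123 and 0.008.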

How the data were processed

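The values are estimated counts per gene, as deposited by the authors, for 36 libraries in 12 groups, with genome build mm10 per the submitters' processing notes. Aligner, counting program and annotation: not given in the sources used here. Per library, 35.9% to 52.6% of values were not whole within 0.01, and they were rounded. Of 18828 lines, 11 without a name were left out (at most 0.00924% of a library) and 16 shared names were summed.

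edgeR 4.0.16 (R 4.3.3) was fitted on all 36 libraries with TMM scaling and filterByExpr, with 2-sided quasi-likelihood F-tests and Benjamini-Hochberg adjustment over 18483 genes at 0.05. A ± after CPM is an SD over 3 libraries, and after a log2 fold change a standard error. Bounds against a line at 0 counts use a floor of 3 counts over the line and cover counting error only. Positions and promoters come from RefSeq on GRCm38.p6, matched by symbol for 93.9% of genes tested. Alternatives were DESeq2 1.42.0, RLE scaling, other filters, the 9 NEPC libraries alone, a replicate block and leaving out each library.

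Named genes were key genes, up to 4 members of each list beyond both lines in each direction, and the 12 highest and 12 lowest genes whose average log2 CPM reached 3. Other list members, chromosome 4 neighbours and the 5-gene, 1.5-fold rule for stretches were chosen after values were seen. Some genes of these lists are counted but not reported here by name. The members and lists were chosen with earlier results of these data known. In simulated data for NEPC-3 against the mean (18425 genes), the contrast recovered 62% of genes changed 1.2-fold, 96% at 1.5-fold, 100% at 2-fold and 100% at 4-fold, with 0.0549% of unchanged genes called. The rule for genes beyond both lines recovered 48%, 88%, 98% and 100%, with 0% of unchanged genes called. Every simulated gene had the common spread and changed genes were above a minimum level. These shares therefore do not cover genes of larger spread or lower level.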

Additional observations from a re-analysis of the deposited data

How the results depend on the processing

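Counts of genes beyond both lines kept within 1.5 times of the reported values under RLE scaling, DESeq2, no filter on low counts, the 9 NEPC libraries alone and each left-out library. The stricter filter (average log2 CPM of at least 1) lowered the counts at 2-fold to 152 higher and 576 lower and at 4-fold to 35 and 188, since fewer genes were tested. The fold limits by construction left 297 and 70 of the higher and 882 and 361 of the lower genes. Leaving out 1 library gave 4546 to 4914 higher and 5737 to 6015 lower genes against the mean, 4387 to 4769 and 5645 to 5987 against NEPC-1, 4735 to 5068 and 5910 to 6195 against NEPC-2, and 5053 to 5386 and 4915 to 5228 for NEPC-1 against NEPC-2. Beyond both it gave 2375 to 2451 higher and 3466 to 3553 lower, at 2-fold 287 to 307 and 869 to 890, and at 4-fold 72 to 78 and 357 to 376. The lower counts were 36 to 36 for interferon, 19 to 20 for antigen presentation, 22 to 22 for luminal and 22 to 23 for adhesion genes, and 16 to 17 sterol genes were higher. Correlations of the deviations of same-numbered libraries ran from -0.0658 to 0.275, and those of unlike-numbered libraries from -0.192 to 0.0762. For NEPC-2 and NEPC-3 the same-numbered values were 0.275, 0.0744 and 0.152, and the unlike-numbered values were -0.192 to 0.0539. A replicate block gave 2498 higher and 3534 lower genes beyond both. No result reversed in any alternative run, but some moved. Over all runs that left out 1 library, 38 list counts moved by more than 1.5 times and 682 did not. In those runs named genes lost their call 70 times, gained it 3 times and kept their status 2573 times. The stricter filter moved 12 list counts and kept 68. With all genes kept, 8 chromosome medians were counted as moved and 12 as the same.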

Other observations

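Imprinted genes, which are read from one parental copy, were higher in NEPC-3 in some cases. Of 24 tested members 15 were not beyond both lines, 7 were higher and 2 lower, against 13.6% higher and 19.3% lower over all genes, with a median log2 fold change of 0.50 against the mean. Usp29 had 3.22, 2.49 and 3.84 CPM in NEPC-1, 0.453, 1.19 and 0.450 CPM in NEPC-2 and 12.3, 11.4 and 12.6 CPM in NEPC-3, and Peg3, a zinc finger gene beside it, had means of 24.9, 4.62 and 44.01 CPM in NEPC-1, NEPC-2 and NEPC-3. Grb10, an adaptor that restrains insulin signalling, had 29.3, 20.9 and 64.7 CPM. All 3 were higher in NEPC-3 (edgeR adjusted p against the mean 3.36e-17, 1.53e-25 and 7.87e-22). Of 34 ribosomal protein genes 14 were higher and 0 lower, against the same shares, by small steps, as for Rpl4 with 552, 554 and 735 CPM. Reads may be shared with ribosomal pseudogenes, so single values are uncertain.

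Neuronal cytoskeleton genes went in both directions. Of 28 tested members 7 were higher and 5 lower, against 13.6% and 19.3% over all genes. Tubb3, a neuronal tubulin, had 114, 116 and 115 CPM in NEPC-1, 72.02, 70.8 and 70.9 CPM in NEPC-2 and 183, 168 and 162 CPM in NEPC-3, and Ank2, an ankyrin, had means of 3.29, 2.51 and 12.2 CPM. Map1b, a microtubule-associated protein, was lower at 376, 399.6 and 244 CPM, as was the adhesion molecule L1cam at 80.2, 76.6 and 40.2 CPM. Of 34 tested voltage-gated channel genes 3 were higher and 7 lower, near those shares. Cacna1d, a calcium channel subunit, had 13.7, 14.3 and 16.6 CPM in NEPC-1, 36.1, 37.9 and 37.3 CPM in NEPC-2 and 69.95, 71.7 and 75.3 CPM in NEPC-3, while its relative Cacna1c had 58.2, 11.4 and 7.19 CPM and the pacemaker channel Hcn4 88.2, 66.8 and 28.1 CPM. Of 48 tested Wnt pathway genes 15 were lower and 3 higher, against 19.3% and 13.6%. Wnt5a, a ligand, was higher at 23.4, 19.5 and 45.8 CPM and Ror2, one of its receptors, lower at 18.6, 51.3 and 10.3 CPM.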
